A study of Mus musculus with 6 samples.

Results

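The proteasome genes of cells sorted as microglia were followed in mice that model amyotrophic lateral sclerosis (ALS). In this disease motoneurones of the cortex, brainstem and spinal cord die. The members were all genes whose name begins with Psma, Psmb, Psmc, Psmd, Psme, Psmf or Psmg and a digit, each read through its brightest probe set. They numbered 49 of the 18193 genes on the array. SOD1 G93A mice carry many copies of a human SOD1 transgene with the ALS mutation, on a B6SJL background, and the transgene is not restricted to microglia. WT mice were litter-matched controls without it. All animals were males at 90 days of age (P90), when the mutants are symptomatic. CD11b-positive cells were sorted from the lumbar cord and the RNA of at least 6 pooled mice went on each array, with 3 arrays for SOD1 G93A and 3 for WT. Values are log2 signals after robust multi-array averaging (RMA), so that a difference of 1 is a doubling.

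The proteasome is the protease that degrades proteins tagged with ubiquitin. Its barrel-shaped core is built of alpha rings, which gate the entry, and beta rings, which hold the catalytic sites, while the regulatory cap consists of ATPases that unfold the substrate and non-ATPase subunits that bind and trim ubiquitin chains. Interferon-gamma is known to induce a variant, the immunoproteasome, in which the catalytic subunits Psmb8, Psmb9 and Psmb10 take the places of Psmb5, Psmb6 and Psmb7, and the activator PA28, made of Psme1 and Psme2, can replace the cap. The peptides that it makes load MHC class I molecules, and microglia are among the brain cells known to express it.

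The rule did not return subunits only. Psmc3ip encodes a partner of the meiotic recombinases and Psme3ip1 a protein that binds Psme3, whereas Psmb11 is the thymus-specific and Psma8 the testis-specific subunit. Of the 5 genes of the immunoproteasome group, 4 were measured, because the probe set for Psme2 is shared with another gene and was left out. Of the 49 members, 22 had 1 probe set with a single gene name and 27 had several, up to 8.

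The 300 bases around the transcription start (250 before it and 50 after it) were available for 41 members, in 44 windows, from RefSeq on GRCm38.p6. The windows of 3 immunoproteasome genes and of 2 other members that passed the test below are shown, since they hold the letters of elements through which interferon, stress or basal factors are known to act. Capitals mark the gamma-activated site TTCNNNGAA in Psmb8, the CCAAT box in Psmb9 (read on the other strand), the interferon-stimulated response element (GAAA, any 2 bases, GAAA) in Psme1 (other strand), the antioxidant response element TGACNNNGC in Psmb6, and the antioxidant response element and the ETS motif CCGGAAG in Psmd12 (both on the other strand). All windows run 5′ to 3′ on the strand of the gene. They lie at chr17:34197945-34198244 (plus strand) for Psmb8, chr17:34187281-34187580 (minus strand) for Psmb9, chr14:55578244-55578543 (plus strand) for Psme1, chr11:70525107-70525406 (plus strand) for Psmb6 and chr11:107479278-107479577 (plus strand) for Psmd12.
Psmb8: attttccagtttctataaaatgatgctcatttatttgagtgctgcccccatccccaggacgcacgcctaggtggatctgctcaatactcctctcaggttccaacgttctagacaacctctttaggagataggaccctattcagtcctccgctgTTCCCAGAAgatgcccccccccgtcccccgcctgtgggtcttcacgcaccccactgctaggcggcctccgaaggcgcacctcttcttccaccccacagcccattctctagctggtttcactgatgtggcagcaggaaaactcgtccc
Psmb9: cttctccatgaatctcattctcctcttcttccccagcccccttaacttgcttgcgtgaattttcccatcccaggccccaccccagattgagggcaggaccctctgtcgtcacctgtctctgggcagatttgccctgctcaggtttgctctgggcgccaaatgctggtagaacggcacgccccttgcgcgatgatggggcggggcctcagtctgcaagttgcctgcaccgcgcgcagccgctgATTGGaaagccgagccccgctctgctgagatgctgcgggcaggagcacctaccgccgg
Psme1: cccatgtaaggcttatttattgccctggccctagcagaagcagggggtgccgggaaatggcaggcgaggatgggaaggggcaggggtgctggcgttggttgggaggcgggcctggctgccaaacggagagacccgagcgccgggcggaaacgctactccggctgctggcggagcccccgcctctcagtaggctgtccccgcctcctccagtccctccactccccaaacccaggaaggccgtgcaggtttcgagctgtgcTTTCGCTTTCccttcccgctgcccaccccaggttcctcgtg
Psmb6: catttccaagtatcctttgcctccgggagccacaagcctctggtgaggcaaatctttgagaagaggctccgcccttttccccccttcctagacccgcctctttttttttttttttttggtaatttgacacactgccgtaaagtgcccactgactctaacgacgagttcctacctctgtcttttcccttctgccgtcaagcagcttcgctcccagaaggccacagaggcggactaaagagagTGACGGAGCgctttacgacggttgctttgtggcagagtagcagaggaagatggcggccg
Psmd12: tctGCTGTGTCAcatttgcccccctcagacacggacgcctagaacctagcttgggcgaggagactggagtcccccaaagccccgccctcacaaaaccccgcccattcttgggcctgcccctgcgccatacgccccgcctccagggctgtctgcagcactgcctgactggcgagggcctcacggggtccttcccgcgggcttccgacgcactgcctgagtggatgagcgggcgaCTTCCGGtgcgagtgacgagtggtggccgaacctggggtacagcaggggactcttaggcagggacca

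Counted from the first transcribed base as 1, with negative positions before it, the gamma-activated site of Psmb8 lay at -97 to -89 and the response element of Psme1 at 10 to 19. The CCAAT box of Psmb9 lay at -8 to -4, the antioxidant element of Psmb6 at -9 to -1 and that of Psmd12 at -247 to -239. Over all member windows, on both strands, the interferon-stimulated response element was in 5 of 44 (11.4%), against 3.44% of all 32851 windows. Besides Psme1, its holders were Psmb3, Psmd4, Psmd9 and Psmg4. Besides Psmb8, the gamma-activated site was in Psmd2 and Psmg1. None of these further holders belongs to the immunoproteasome group. The gamma-activated site was in 3 (6.82%, against 8.3%), the antioxidant element in 6 (13.6%, against 12.4%) and the NF-kappaB motif (GGGA, any 2 bases, TTCC) in 1 (2.27%, against 1.47%). The wider NF-kappaB motif (GGG, any 5 bases, CC), which can overlap the strict one, was in 24 (54.5%, against 50.8%) and the CCAAT box in 16 (36.4%, against 37.4%). The ETS motif was in 17 (38.6%, against 8.86%). These are matches of letters and not binding sites. Of the 7 members that passed and had a window, Psmb10 and Psma4 held none of the motifs. The genes Psmb9 and Psmb8 are neighbours at chr17:34182030-34187330 and chr17:34198195-34201454, 10.9 kb apart. Tap1, which encodes a subunit of the peptide transporter, starts 226 bases from Psmb9 on the opposite strand, and the windows of these genes share 275 bases.

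Median log2 signals ran only from 5.93 to 5.97 over the 6 arrays. The gap between the 3′ and 5′ control probe sets of Gapdh, which is wider where RNA or cDNA is shorter, was 4.13 ± 0.593 in SOD1 G93A and 4.89 ± 0.111 in WT (log2, SD, n = 3 each). The difference of -0.77 gave p = 0.1 in the exact two-sided permutation test, the smallest that 3 against 3 allows. The Gapdh gap was narrowest in SOD1 G93A replicate 3 (3.47). The same gap for Actb was 2.67 ± 0.723 in SOD1 G93A and 3.42 ± 0.491 in WT. Its difference was -0.75 with overlapping groups (p = 0.2, same exact test). Of 9 microglial markers measured, Trem2 and Tyrobp were higher, Sall1 was lower, and Itgam, which encodes CD11b, differed by -0.02 (adjusted p = 0.952). Their summed signal was 15.85 to 15.94 in SOD1 G93A and 15.71 to 15.84 in WT (log2). For markers of other cells, the calls can be set against all genes, of which 2.53% were lower and 4.09% higher. Of 8 monocyte genes 6 were lower, with summed signals of 12.99 to 13.66 in SOD1 G93A and 13.85 to 14.58 in WT. Chil3, the brightest of the 8, weighed most in this sum and did not pass (adjusted p = 0.156, overlapping groups). Of 10 neutrophil genes 2 were lower, and the summed signals overlapped (15.72 to 16.29 in SOD1 G93A, 16.07 to 16.80 in WT). Lower too were 4 of 9 astrocyte genes (10.25 to 11.06 in SOD1 G93A, 11.45 to 12.44 in WT), 2 of 7 oligodendrocyte genes (13.16 to 13.34 in SOD1 G93A, 13.88 to 14.48 in WT) and 3 of 7 neuronal genes (8.49 to 8.81 in SOD1 G93A, 9.58 to 9.79 in WT). Nefm, Snap25 and Map2 had a mean log2 signal under 5 over all 6 arrays, although Nefm and Map2 averaged 5.30 and 5.26 in WT. Of 12 lymphocyte genes, 1 was lower, with summed signals of 9.38 to 9.56 in SOD1 G93A and 9.81 to 9.94 in WT. Cd3g, Cd2 and Gzma lay under 5 by the mean over all 6 arrays. Of 7 endothelial genes, 1 was higher (9.38 to 9.77 in SOD1 G93A, 9.09 to 9.35 in WT, with Tek under 5). The part of these cells in the results below was not tested. In sorted pools, fewer cells of a type and less RNA per cell cannot be told apart.

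Proteasome transcripts were higher in the CD11b-positive cells of SOD1 G93A mice for 9 of the 49 members (18.4%) and lower for none. The calls were made by limma with Benjamini-Hochberg adjustment over all genes at a threshold of 0.05. Over the array, 6.63% of genes passed, 4.09% higher and 2.53% lower. The log2 fold change was above 0 for 42 members and below 0 for 7, with a median of 0.23 against 0.02 over all genes, of which 54.4% were above 0. All 3 SOD1 G93A arrays lay above all 3 WT arrays for 27 members and below them for 1, while 16.6% of all genes lay above and 10.9% below. At an unadjusted p under 0.05, 23 members were higher and 1 lower, against 12.7% and 8.86% of all genes. By the fold threshold of the methods together with an unadjusted p under 0.05, Psmd8 was the 1 member to pass, against 3.08% of all genes. Without Psmc3ip and Psme3ip1, 9 of 47 members passed (19.1%) and the median was 0.27. Among those that passed, the change ran from 1.38-fold in Psmd12 to 1.83-fold in Psmd8.

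**Figure D1:**
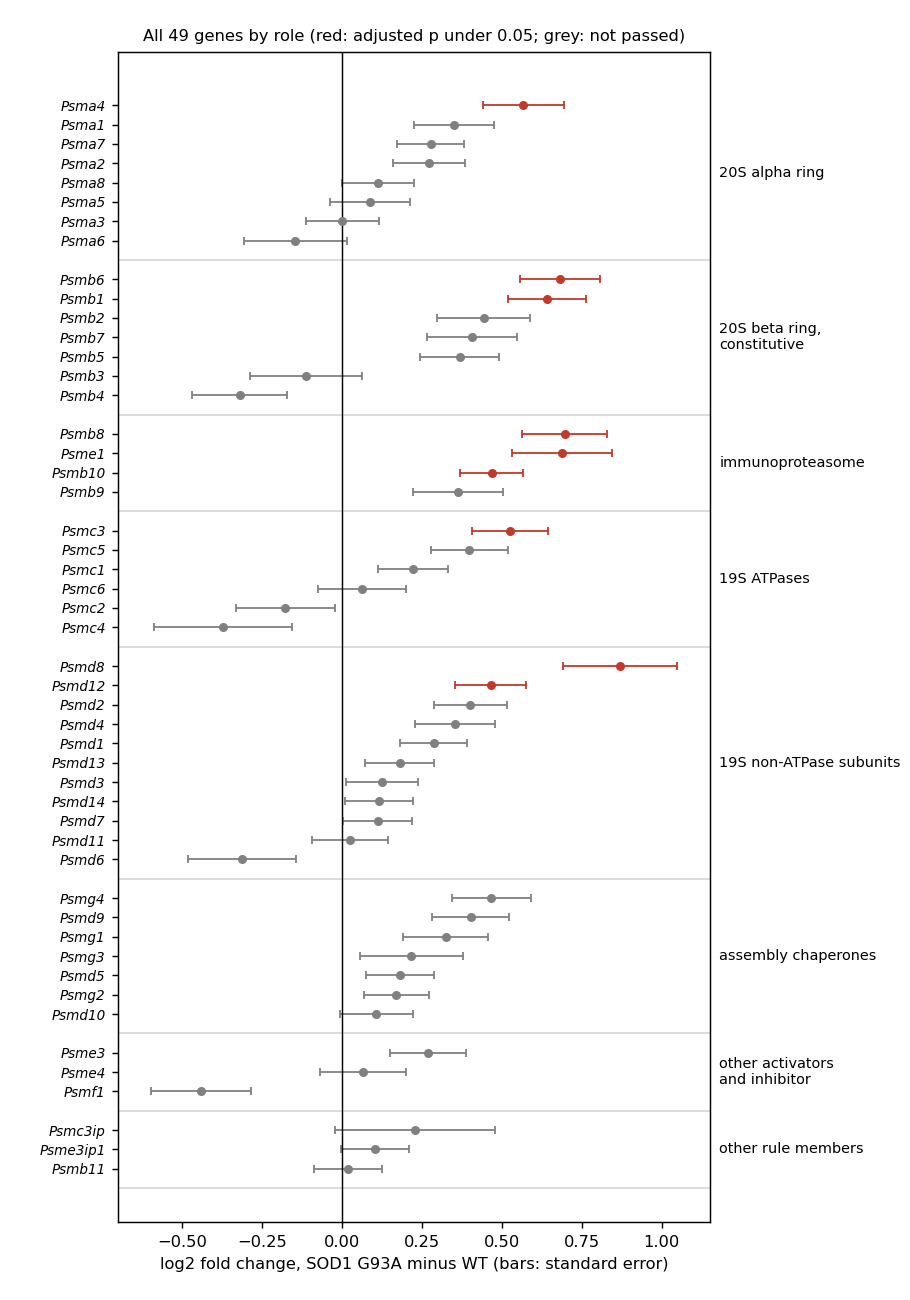
Log2 fold change (SOD1 G93A minus WT, horizontal axis) of the 49 members by role, 1 row per gene, with bars for the standard error from limma. Red points passed the adjusted threshold of 0.05 and grey points did not; all 9 red points lie to the right of 0, and 7 grey points lie to the left of it.

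Among the immunoproteasome genes, 3 of the 4 measured were higher, and the group had a median log2 fold change of 0.58. Psmb8, which carries the chymotrypsin-like site, read 9.89, 9.92 and 10.23 in SOD1 G93A and 9.18, 9.45 and 9.31 in WT (log2 signal). Every mutant array was above every WT array, and the gene rose 1.62-fold (log2 fold change 0.70 ± 0.132 SE, adjusted p = 0.0188). Psmb8 has a second, dim probe set of mean log2 signal 6.13, with a log2 fold change of -0.09 (adjusted p over all probe sets = 0.853). The mean of both gave 0.30 (adjusted p = 0.126).

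Psme1, the alpha subunit of PA28, read 9.54, 9.87 and 10.17 in SOD1 G93A against 9.16, 9.23 and 9.12 in WT. The WT arrays were close together and the mutant arrays were spread, with replicate 1 the lowest. The log2 fold change was 0.69 ± 0.156 (adjusted p = 0.036). Psmb10, which carries the trypsin-like site, read 9.57, 9.50 and 9.61 in SOD1 G93A and 9.04, 9.10 and 9.14 in WT. The 2 genotypes formed tight, separate groups, and the log2 fold change was 0.47 ± 0.0993 (adjusted p = 0.0281).

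Psmb9, which takes the place of the caspase-like Psmb6 but cleaves after hydrophobic residues, read 8.78, 9.11 and 9.30 in SOD1 G93A and 8.63, 8.75 and 8.73 in WT. The groups did not overlap, but SOD1 G93A replicate 1 lay only just above the highest WT array, and the log2 fold change of 0.36 ± 0.142 did not pass (adjusted p = 0.176). Without that array it passed (adjusted p = 0.0487). Psmb9 is read through 1 probe set only, as is every member that passed except Psmb8 and Psmb1, whose other sets did not pass.

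**Figure D2:**
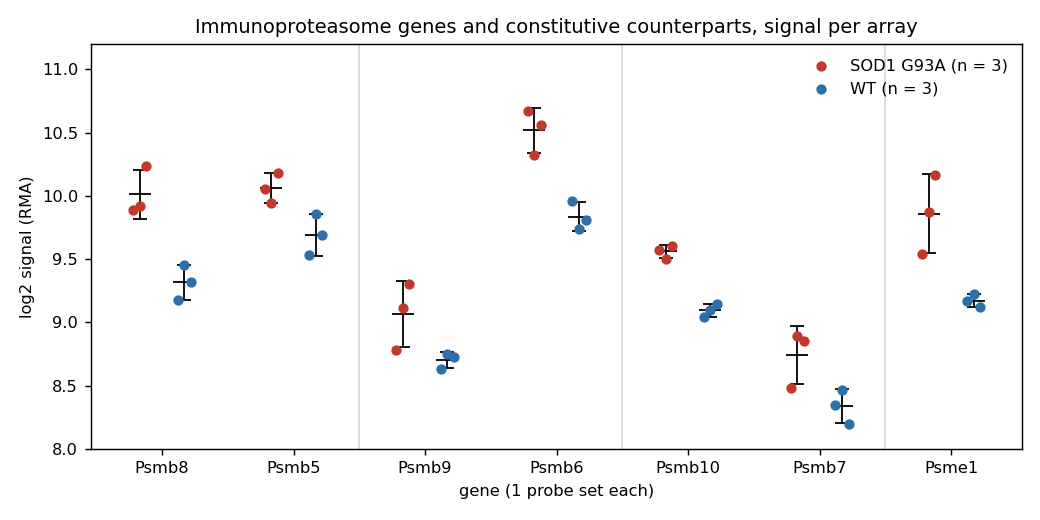
Log2 RMA signal (vertical axis) of the immunoproteasome genes Psmb8, Psmb9, Psmb10 and Psme1 and of the constitutive genes Psmb5, Psmb6 and Psmb7, with SOD1 G93A in red at the left and WT in blue at the right of each gene. Points are arrays (n = 3 each) and bars are the mean ± SD; for each of these genes the SOD1 G93A points lie above the WT points, and for Psmb9 the gap is narrow.

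The constitutive counterparts were also above WT on every array. Psmb6, the caspase-like subunit that Psmb9 replaces, read 10.67, 10.32 and 10.56 in SOD1 G93A against 9.96, 9.74 and 9.81 in WT. It rose 1.60-fold (log2 fold change 0.68 ± 0.126, adjusted p = 0.0166), the lowest adjusted p of all members. Psmb5, the chymotrypsin-like subunit, read 10.05, 9.95 and 10.18 in SOD1 G93A and 9.53, 9.86 and 9.69 in WT, and its log2 fold change of 0.37 ± 0.124 did not pass (adjusted p = 0.12). WT replicate 2 came close to the lowest mutant array. Psmb7, the trypsin-like subunit, read 8.48, 8.89 and 8.85 in SOD1 G93A and 8.34, 8.46 and 8.20 in WT (0.41 ± 0.139, adjusted p = 0.127).

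Whether an inducible subunit moved apart from its counterpart was examined within each array, for 3 pairs. Psmb8 minus Psmb5 was -0.16, -0.03 and 0.05 in SOD1 G93A and -0.35, -0.40 and -0.38 in WT. The groups did not overlap and the change was 0.33 (exact two-sided permutation p = 0.1, the smallest possible). With the mean of all probe sets of each gene it was -0.06. Psmb9 minus Psmb6 was -1.89, -1.21 and -1.26 in SOD1 G93A and -1.33, -0.99 and -1.08 in WT, a change of -0.32 with overlapping groups (p = 0.3, same exact test). Psmb10 minus Psmb7 was 1.09, 0.61 and 0.76 in SOD1 G93A and 0.70, 0.63 and 0.94 in WT, a change of 0.06 (p = 0.7, same exact test). After Benjamini-Hochberg adjustment over the 3 pairs the values were 0.3 for Psmb8, 0.45 for Psmb9 and 0.7 for Psmb10. The pairs did not move in 1 direction: the sign was positive for Psmb8 and Psmb10 and negative for Psmb9, and for Psmb10 it turned to -0.07 without SOD1 G93A replicate 1 and to -0.0009 without WT replicate 2. The level of 1 probe set cannot be set against that of another, so that only changes in these differences are meaningful.

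In the core, Psmb1 of the beta rings and Psma4 of the alpha rings were higher besides Psmb6. Psmb1, a beta subunit without a catalytic site, read 9.83, 9.52 and 9.72 in SOD1 G93A and 8.92, 9.09 and 9.14 in WT (0.64 ± 0.122, adjusted p = 0.019). It passed on its brightest probe set only, and the other 2 gave 0.13 and 0.08 (adjusted p over all probe sets = 0.728 and 0.864). Psma4 read 9.30, 9.41 and 9.40 in SOD1 G93A and 8.57, 8.98 and 8.86 in WT, with the 3 mutant arrays nearly equal (0.57 ± 0.127, adjusted p = 0.0346). Of the 8 alpha-ring genes this was the 1 that passed, with a group median of 0.19, and of the 7 constitutive beta genes 2 passed, with a median of 0.41. The lowest values were those of Psma6 (-0.15, adjusted p = 0.674) and Psmb4 (-0.32, adjusted p = 0.255), and in both the genotypes overlapped.

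In the regulatory cap, 1 of 6 ATPases and 2 of 11 non-ATPase subunits were higher. Psmd8, a non-ATPase subunit of the lid, had the largest log2 fold change of all members, 0.87 ± 0.178 (adjusted p = 0.0248). It read 8.20, 8.49 and 8.84 in SOD1 G93A against 7.40, 7.82 and 7.71 in WT, so that the lowest mutant array still exceeded the highest WT array. Psmd12, a scaffold subunit of the lid, read 9.18, 9.16 and 8.94 in SOD1 G93A and 8.70, 8.60 and 8.59 in WT (0.47 ± 0.111, adjusted p = 0.0423). Here SOD1 G93A replicate 3 was the lowest mutant array, whereas in Psmd8, Psmb8, Psmb9 and Psme1 it was the highest. Psmc3, an ATPase of the ring that docks on the core, read 9.71, 9.41 and 9.71 in SOD1 G93A and 9.03, 9.12 and 9.10 in WT (0.53 ± 0.118, adjusted p = 0.0346). The ATPases had a median log2 fold change of 0.14 and the non-ATPase subunits one of 0.18. At the low end were Psmc4 (-0.37, adjusted p = 0.371) and Psmd6 (-0.31, adjusted p = 0.33), with overlapping groups.

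None of the 7 assembly chaperones, which hold subunits together while rings and base are built, passed, although all 7 were above 0, with a median of 0.22. Psmg4, a chaperone of the alpha ring, was the highest, at 7.78, 7.46 and 7.57 in SOD1 G93A and 7.26, 7.03 and 7.13 in WT (0.47 ± 0.124, adjusted p = 0.0596). Psmd10, which is also known as the oncoprotein gankyrin, was the lowest (0.11, adjusted p = 0.662). Among the other activators and the inhibitor, Psme3, the nuclear activator PA28-gamma, had a log2 fold change of 0.27 (adjusted p = 0.235).

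Psmf1, which encodes the proteasome regulator known as an inhibitor of the core in vitro, was the 1 member whose mutant arrays all lay below the WT arrays. It read 7.29, 7.53 and 7.25 in SOD1 G93A and 8.10, 7.54 and 7.75 in WT (-0.44 ± 0.157, adjusted p = 0.14). WT replicate 2 was almost level with the highest mutant array. Of the remaining rule members, the lowest and the highest were Psmb11, with 0.02 (adjusted p = 0.948), and Psmc3ip, with 0.23 ± 0.249 (adjusted p = 0.669).

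The choice of probe set mattered, and not only for the members at the low end. Of 15 members with several probe sets at a mean log2 signal of at least 7, 11 had log2 fold changes of both signs. In some the value below 0 was small, as in Psmd4 (-0.0096) and Psme4 (-0.065). The share over all genes was not counted. On this array, a probe set whose name carries a suffix letter (a_at, s_at or x_at) holds probes that match several transcripts, of the same gene or of others. All 7 members below 0 were read through such a suffixed probe set, and the brightest unsuffixed probe set of each had a log2 fold change above 0. These 7 were picked by a low value on the set used, which alone can make another set read higher. Psmb4 had 0.64 on the unsuffixed set against -0.32 on the suffixed one, and Psmc4 had 0.56 against -0.37. Psmf1 had 0.26 against -0.44, Psmd6 0.30 against -0.31, Psma6 0.24 against -0.15 and Psmb3, a beta-ring subunit, 0.61 against -0.11. Psmc2, an ATPase, had 0.57 against -0.18, and this unsuffixed set passed (adjusted p over all probe sets = 0.0429). Dimmer unsuffixed sets of Psmc2 (-0.20), Psmf1 (-0.09) and Psma6 (-0.03) lay below 0, and a further one of Psmf1 (0.07) lay above it. Psmc2 and Psmb3 were added to the genes named after their values were seen. Of 10 members with both kinds at a mean log2 signal of at least 7, 9 had the higher value on the unsuffixed set, with a median gap of 0.66. The same direction held for 885 of 1355 genes of the whole array (65.3%), with a median gap of 0.17. Of all 103 member probe sets, 11 passed over all probe sets and none was lower (4.64% of all probe sets passed), and 3 of the 11, for Psmc2, Psmd7 and Psmc3ip, were not the brightest of their gene. Counted by gene, 11 members had at least 1 probe set that passed, against 8.11% of all genes.

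**Figure D3:**
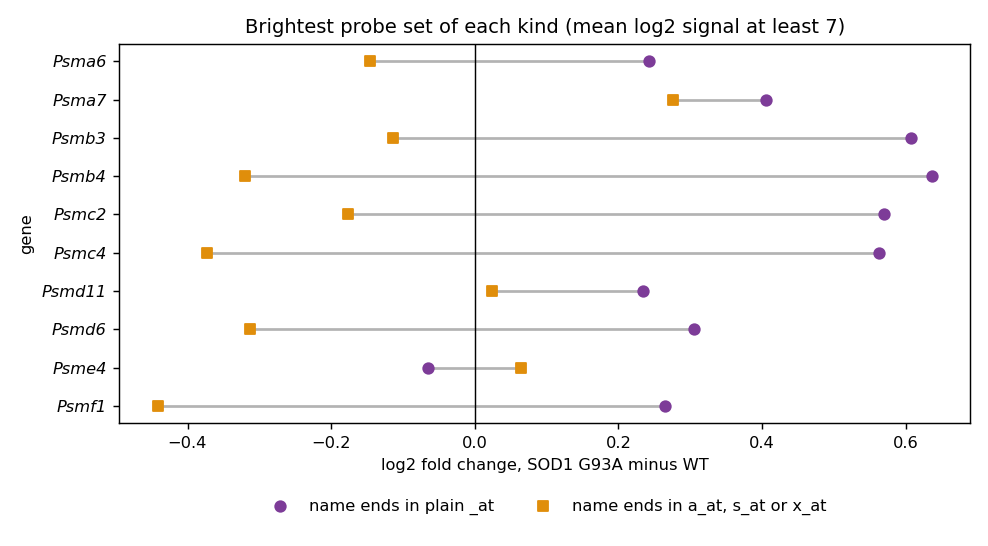
Log2 fold change (SOD1 G93A minus WT, horizontal axis) of the brightest suffixed probe set (orange squares) and the brightest unsuffixed one (purple circles) of the 10 members with both kinds at a mean log2 signal of at least 7. Grey lines join the 2 values of a gene; the circle lies to the right of the square in 9 genes, and Psme4 is the exception.

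The calls rested on few arrays. With SOD1 G93A replicate 1 left out, 9 members passed (without Psmb10, Psmc3 and Psmd12, and with Psmb7, Psmb9 and Psmd2), while 3 passed without SOD1 G93A replicate 2 (Psmb1, Psmb6 and Psmc3), 0 without SOD1 G93A replicate 3, 5 without WT replicate 1 (Psmb1, Psmb6, Psmb8, Psmd8 and Psmd9), 1 without WT replicate 2 (Psmb8) and 0 without WT replicate 3. At an unadjusted p under 0.05, in either direction, 14 members stood without SOD1 G93A replicate 3 (28.6%, against 16.9% of all genes) and 20 without WT replicate 3 (40.8%, against 17.9%). The count of all genes that passed after adjustment fell as well, from 1206 with all arrays. It was 1108, 446 and 358 without SOD1 G93A replicate 1, 2 and 3, and 1166, 456 and 433 without WT replicate 1, 2 and 3. Of the immunoproteasome group, 3 genes passed without SOD1 G93A replicate 1, 1 without WT replicate 1 or 2, and 0 in the other 3 fits. In these fits none of the 9 changed sign. Over the 6 fits the adjusted p ran from 0.0224 to 0.0713 for Psmb8, from 0.0174 to 0.0724 for Psmb6, from 0.0389 to 0.078 for Psmb1, from 0.0129 to 0.0861 for Psmd8, from 0.00994 to 0.12 for Psme1, from 0.0483 to 0.121 for Psma4 and from 0.043 to 0.133 for Psmc3. It ran from 0.0542 to 0.11 for Psmb10 and from 0.0539 to 0.138 for Psmd12, so that neither passed in any of them. The median shift of the immunoproteasome group from its WT mean was 0.42, 0.51 and 0.76 in the 3 SOD1 G93A arrays, and that of the other 45 members 0.24, 0.15 and 0.24, while all genes shifted by 0.06, 0.00 and 0.01.

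With the Gapdh gap of each array as a covariate, no member passed, and 94 genes of the whole array did. All 9 members kept their direction, with log2 fold changes between 0.30 and 0.73 and adjusted p between 0.119 and 0.42. At an unadjusted p under 0.05, in either direction, 11 of the 49 members stood (22.4%, against 14.9% of all genes). The immunoproteasome median was 0.36 in this fit and that of Psmb9 0.04, whereas Psmb6 had 0.73. The covariate differs between the genotypes, so the fit also takes up part of the genotype difference.

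The other genes of the pathway were taken from lists. Over the array, 4.09% of genes were higher and 2.53% lower, so 1 call in a list is not read as a result about that list. Of 18 partners of the proteasome measured, such as shuttle factors, deubiquitinases and transcriptional regulators, 1 was higher and none was lower, with a median log2 fold change of -0.01. It was Pomp, the maturation protein needed to complete the core, at 9.65, 9.65 and 9.72 in SOD1 G93A and 9.13, 9.34 and 9.25 in WT (0.43 ± 0.105, adjusted p = 0.0449). It passed in none of the 6 fits with an array left out (adjusted p = 0.0733 to 0.154). Of the activating enzymes (E1), 2 were measured and neither passed. Uba6, which activates ubiquitin, had a log2 fold change of 0.23 (adjusted p = 0.396), and Uba7, which activates the ubiquitin-like modifier ISG15, one of 0.24 (adjusted p = 0.342).

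Of 12 genes of the MHC class I peptide pathway, 6 were higher and none was lower, against 4.09% and 2.53% of all genes. The median log2 fold change of the 12 was 0.67. Nlrc5, the transactivator of MHC class I genes, was at 8.01 ± 0.514 in SOD1 G93A and 6.93 ± 0.101 in WT (log2 signal, SD, n = 3 each), with all mutant arrays above WT (log2 fold change 1.07 ± 0.225 SE, adjusted p = 0.0268). B2m, the light chain of MHC class I, was at 0.83 ± 0.162 (adjusted p = 0.0204), Pdia3, a chaperone of the loading complex, at 0.78 ± 0.172 (adjusted p = 0.0327) and Erap1, the peptidase that trims peptides in the endoplasmic reticulum, at 0.76 ± 0.157 (adjusted p = 0.026). Tap1, the neighbour of Psmb9, read 8.40, 8.38 and 8.54 in SOD1 G93A and 7.87, 7.77 and 7.95 in WT (0.58 ± 0.107, adjusted p = 0.017), but its 3 other probe sets gave 0.04, -0.12 and -0.17. Thus on 1 shared start region the brightest probe set of Tap1 passed and that of Psmb9 did not, and whether their changes differ was not tested.

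Interferon signalling, which controls the inducible subunits, had a median of 0.10 over 12 genes. Of these, 1 was higher and none was lower, against 4.09% and 2.53% of all genes. This was Irf8, a transcription factor of the myeloid lineage, at 11.45, 11.59 and 11.79 in SOD1 G93A and 10.84, 11.11 and 11.07 in WT (0.60 ± 0.129, adjusted p = 0.0284). The 9 cytosolic peptidases that degrade the products of the proteasome had a median of 0.04. Of these too, 1 was higher and none was lower, against the same shares of all genes. Lap3, a leucine aminopeptidase, read 9.07, 8.99 and 9.20 in SOD1 G93A and 8.02, 8.26 and 8.22 in WT (0.92 ± 0.115, adjusted p = 0.00361). It passed in all 6 fits with an array left out, but not with the Gapdh covariate (adjusted p = 0.0875). The other genes named from these lists that had passed did not pass with that covariate either (adjusted p = 0.217 to 0.35). Of the other genes named from these lists, B2m lost its call without SOD1 G93A replicate 2 or 3 or WT replicate 3 (highest adjusted p = 0.0849), Erap1 and Nlrc5 in the same fits and without WT replicate 1 (highest 0.105 and 0.103), and Nlrc5 also without WT replicate 2. Pdia3, Tap1 and Irf8 lost theirs without SOD1 G93A replicate 2 or 3 or WT replicate 2 or 3 (highest adjusted p = 0.127, 0.0771 and 0.11), and Irf8 also without WT replicate 1.

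**Figure D4:**
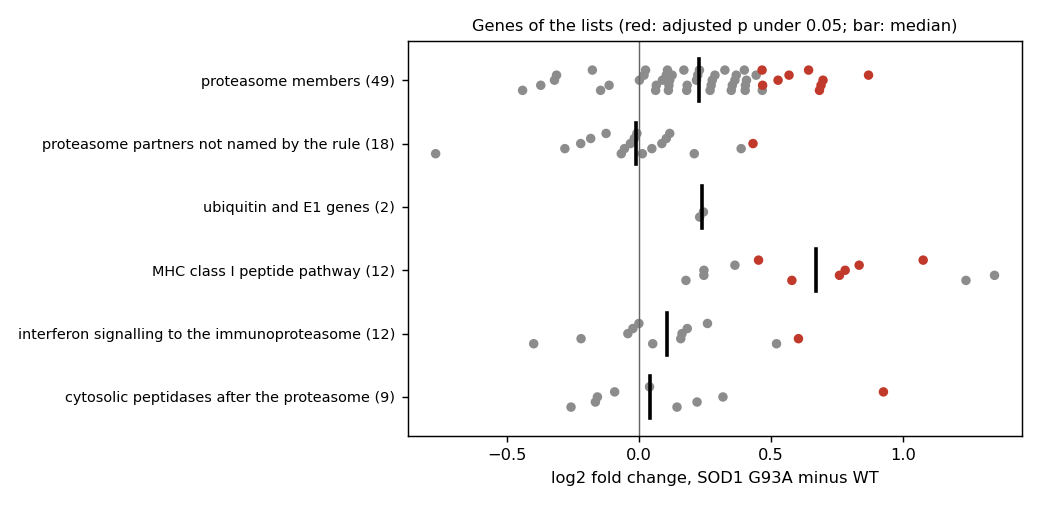
Log2 fold change (SOD1 G93A minus WT, horizontal axis) of the 49 members and of each pathway list, 1 point per gene, with the number of genes in brackets and a bar at the median. Red points passed the adjusted threshold of 0.05; 6 of 12 MHC class I pathway genes and 9 of 49 members are red, all to the right of 0.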

How the data were processed

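RNA of cells sorted as microglia was measured on whole-genome Affymetrix mouse arrays, 3 SOD1 G93A and 3 WT, each a pool of at least 6 mice. The deposited values are log2 signals, which per the submitters' processing notes were made by the authors with RMA in Partek. The version is not given in the sources used here, and the methods name another program, MAS 5.0, for the published comparison. Per the labels a standard labelling protocol was used, whereas the methods describe a double amplification of small RNA amounts, which shortens cRNA and makes signals depend on the distance from the 3′ end. No column belonged to a sample of another group.

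Of 45101 probe sets, 64 Affymetrix controls were left out. Of the 45037 tested, 34945 had 1 gene symbol in the platform annotation, 932 had several and 9160 none. A linear model with empirical Bayes variance (limma 3.58.1 in R 4.3.3, without trend) compared SOD1 G93A with WT over all probe sets, with the difference taken as SOD1 G93A minus WT. The probe set with the highest mean over the 6 arrays stood for its gene, and p-values were adjusted by the Benjamini-Hochberg method over 18193 genes, at a threshold of 0.05. The fit was tested on simulated data with noise drawn independently for each gene and array. That trial cannot show how a shift shared by many genes of an array affects the calls. No filter on low values was used, so that all 49 members were tested. Single values were compared by the exact two-sided permutation test, which cannot go below 0.1 with 3 arrays against 3. The number of arrays limits the precision, and as nothing says that pools were independent cultures or litters, p-values measure the spread between these pools.

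The members, the gene lists and the rules for the genes named were chosen with earlier results of these data known. The genes named were the immunoproteasome genes, their counterparts, every member past the threshold, the highest and lowest member of each role, and up to 5 genes of a pathway list that passed, by size (the 2 largest where none passed). Alternatives were the unequal-variance test of the methods, a trended and robust variance, the mean of all probe sets, no suffixed probe sets, a mean signal of at least 5 or of at least 7, arrays centred on their medians, array weights, the replicate number as a block, the Gapdh gap as a covariate, and arrays left out. The variance moderated over genes only was added after seeing the data.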

Additional observations from a re-analysis of the deposited data

How the results depend on the processing

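No member passed in the methods' t-test after adjustment (0 of 49, 0 of the immunoproteasome group and 0 of all genes, with 16, 2 and 2690 at an unadjusted p under 0.05) or with the Gapdh covariate (0, 0 and 94). By the fold threshold of the methods with unadjusted p-values, 1 member, 0 of the immunoproteasome group and 560 genes passed. Array weights gave 14 members and 1819 genes, and leaving out both arrays numbered 1 gave 10 and 1842. The other settings gave 7 to 11 members. Psmb10, Psmc3 and Psmd12 lost their calls without both arrays numbered 1 (adjusted p = 0.0577, 0.0769 and 0.0573), Psmd12 with the trended and robust variance (adjusted p = 0.0597), Psmb8 and Psmb1 with the mean of all probe sets (adjusted p = 0.126 and 0.137) and Psmb1 without suffixed ones (adjusted p = 0.857). Calls were gained by Psmb7 and Psmb9 without both arrays numbered 1 (adjusted p = 0.0344 and 0.0496), by Psmb7 with array weights (adjusted p = 0.0371), by Psmc3ip without suffixed probe sets (adjusted p = 0.0155), and by Psmg4 with both signal minimums, median-centred arrays, array weights and the replicate block (adjusted p = 0.0232 to 0.048). The arrays were not treated as pairs, since the labels tie no number to a litter. Deviations of same-numbered arrays correlated at 0.44, 0.24 and 0.0411, and SOD1 G93A replicate 3 correlated best with WT replicate 2. Both arrays numbered 1 shared a shift. On the second axis of a principal component analysis (25.8% of the variance) they lay at 21.97 in SOD1 G93A and 21.2 in WT. The other arrays lay between -16.74 and -6.98, and the cause of this shift was not tested. The replicate block gave 11 members, 3 of the immunoproteasome group and 2221 genes.

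With 1 array left out, 0 to 9 members, 0 to 3 of the immunoproteasome group and 358 to 1166 genes passed. The immunoproteasome median ran from 0.49 to 0.63 in these fits, and was 0.41 with the mean of all probe sets and 0.36 with the Gapdh covariate. The median of the other members ran from 0.16 to 0.25, and was 0.16 with the mean of all probe sets, 0.29 without suffixed ones and 0.17 with array weights.

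Signs turned as follows. Psmb8 minus Psmb5 was -0.0638 with the mean of all probe sets. Psmb10 minus Psmb7 was -0.11 without both arrays numbered 1 and ran from -0.0747 to 0.17 with 1 array left out. With the mean of all probe sets, Psma6 was at 0.0389, Psmb4 at 0.16 and Psmc4 at 0.0951, and without suffixed ones Psma6 was at 0.24, Psmb4 at 0.64, Psmc4 at 0.56, Psmd6 at 0.30 and Psmf1 at 0.26. With the Gapdh covariate, Psma6 was at 0.21, Psmc4 at 0.00275 and Psmb11 at -0.0668. Single other probe sets gave -0.0884 for Psmb8, 0.0898 for Psma6, -0.10 for Psme3, 0.0736 for Psmf1, -0.0104 and -0.12 for Uba6 and -0.12 and -0.17 for Tap1. With 1 array left out, Psmb11 ran from -0.0318 to 0.0559 and Psmc3ip from -0.0322 to 0.44. The cause was not tested.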
